A study of Mus musculus with 12 samples.

Results

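CD4 T cells that had divided 7 times (D8) were compared with cells of the same response that had divided 3 times (D4), in 3 independent experiments. The 6 arrays are those of D8 and D4, of 12 arrays in the series, chosen by the division each sample is labelled with and not by any measured value. All cells began as naive CD4 T cells from the DO11.10 strain, with a transgenic T cell receptor for a peptide of ovalbumin (OVA). They were stained with CFSE, a dye that is diluted at each division, and transferred into BALB/c hosts that were then immunized with OVA peptide in complete Freund's adjuvant (CFA). The D8 and D4 cells therefore shared donor strain, host, antigen and adjuvant, and were sorted from lymph node cells by dye dilution within 3 days. According to the design text, D4 cells passed readily into the memory pool after transfer into new hosts, and D8 cells did so less. The comparison asks which genes set these late effectors apart from the memory precursors. No gate on the transferred receptor is named in the labels, no age or sex of the mice is given, and the number of mice behind a sample is not stated.

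A naive CD4 T cell that meets its antigen divides rapidly and differentiates along the way. The daughters may become helper cells that secrete interferon gamma, interleukin 4 or interleukin 17, or follicular helper cells that move toward B cells and supply interleukin 21. Most effectors die after the response, and the few that persist as memory cells depend on survival proteins such as Bcl2 and on cytokine signals, and they slow their cell cycle.

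RNA was read on Illumina mouse bead arrays with 45281 probes. Of these, 16298 had a detection p-value under 0.05 on 3 or more of the 6 arrays and were tested. Detected probes numbered 15563 to 16129 on the D8 arrays and 15678 to 16527 on the D4 arrays, and the median raw intensity was 41.6 to 50.8 in D8 and 45.5 to 49.3 in D4. Of 8 CD4 T cell markers on the array, 7 were detected on all 6 arrays and Cd5 on none. Their summed intensity was 46410 to 46890 in D8 and 49130 to 54050 in D4. Cd8a was detected on no array, and Cd8b1 was detected in both divisions. The sum of these 2 was 2326 to 2877 in D8 and 2872 to 3394 in D4. It was above the sum of any marker list below, and its source was not tested. Of the markers of other cells, 5 of 6 for NK cells, Pax5, Blk and Cr2 for B cells, Itgam, Cd14, S100a8 and S100a9 for myeloid cells, 4 of 6 for dendritic cells and 5 of 6 for stroma were detected on no array. The same held for 2 of 4 plasma cell and 1 of 2 erythroid markers. Others were detected. On all 3 D8 arrays these were 2 of 7 B cell, 2 of 8 myeloid, and 1 of 6 each of the NK cell, dendritic cell and stroma markers. On all 3 D4 arrays they were 2 B cell markers and 1 each for myeloid, NK, dendritic, stroma and plasma cells. Of the 2 plasma cell markers tested, 1 was called lower in D8 (-1.09).

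Levels below are log2 intensities after background correction and quantile normalization. Changes are log2 differences, D8 minus D4, with the standard error of a limma fit that holds the experiment as a block (3 arrays per division). A probe was called at a Benjamini-Hochberg adjusted p under 0.05 over all 16298 probes, and a gene is represented by its brightest probe. Of the probes, 4774 (29.3%) were called. Of 8884 genes, 2747 (30.9%) were called, 1349 (15.2%) higher and 1398 (15.7%) lower in D8. The median change over all genes was 0.003 and the median absolute change 0.23. Changes of over 2-fold were called for 295 genes (3.32%) upward and 236 (2.66%) downward, and changes of over 4-fold for 48 and 31. Over all 16298 probes tested, called or not, the D8 minus D4 differences of experiments 1 and 2 correlated at 0.82, of 1 and 3 at 0.78 and of 2 and 3 at 0.74, which describes these arrays, as probes are not independent replicates. Of the 2747 called genes, 2742 moved the same way in all 3 experiments, an agreement that a fit by experiment selects for, and in 2550 the D8 and D4 values did not overlap. Over all genes, values without overlap were seen for 1918 (21.6%) upward and 1879 (21.2%) downward. Counts of list members below include genes that passed the detection filter through the arrays of 1 division, and such a gene had to differ. The lists were drawn up with earlier results of these data known, so their shares beside those of all genes are given as description. In bulk samples, fewer cells that express a gene and less RNA per cell cannot be told apart, and this holds for every difference below.

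**Figure D1:**
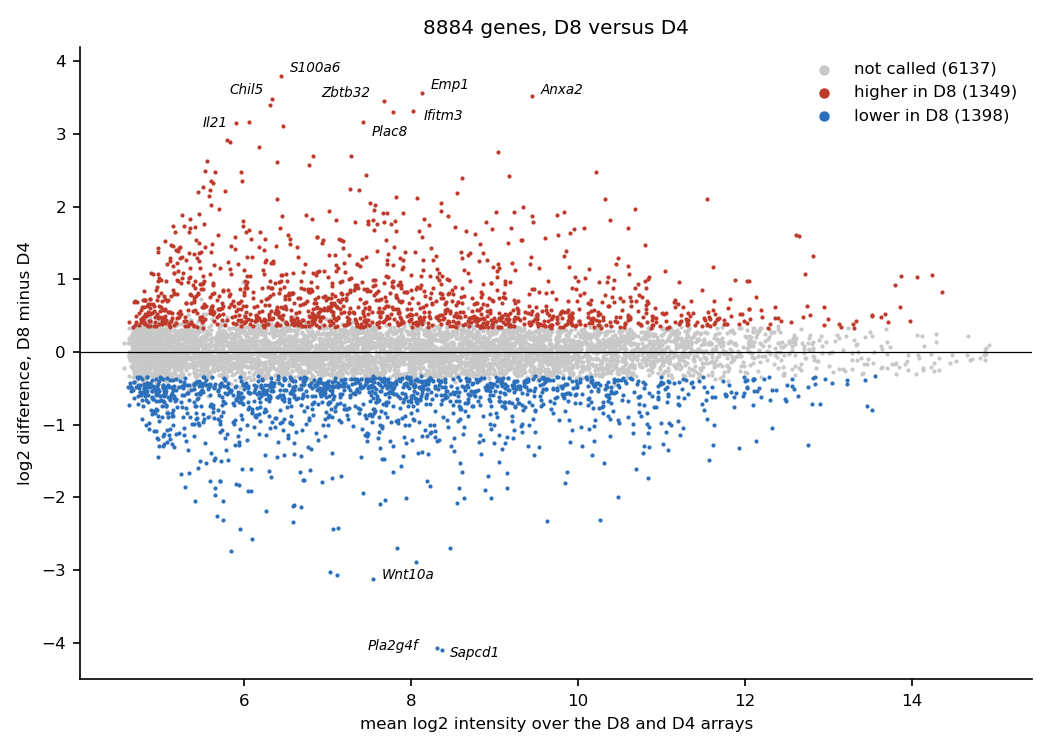
Change of each of 8884 genes (log2 difference, D8 minus D4) against its mean log2 intensity over the 6 arrays. Red points mark the 1349 genes higher in D8 and blue points the 1398 lower, and both lie over the whole range of intensity, with S100a6 highest and Sapcd1 lowest.

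The largest increases in D8 were in genes for calcium- and membrane-binding proteins, a chemokine receptor and a transcriptional repressor. S100a6, which encodes a small calcium-binding protein, had log2 intensities of 8.80, 8.52 and 7.71 on the D8 arrays, against 4.33, 4.73 and 4.57 on the D4 arrays. It was 3.80 ± 0.21 higher (adjusted p = 1.31e-05). In D4 it was above background on only 1 array, as were Lgals3 and Chil5, so the D4 level behind these 3 changes lies near background. Anxa2, a phospholipid-binding annexin, read 11.51, 11.27 and 10.86 on the D8 arrays, against 7.68, 8.14 and 7.24 on the D4 arrays, a difference of 3.53 ± 0.15 (adjusted p = 4.96e-06). A dimmer second probe for Anxa2 gave 0.69, so the size of its increase depends on the probe. Lgals3, the galactoside-binding lectin galectin 3, stood at 8.50, 7.62 and 7.90 on the D8 arrays, against 4.40, 5.06 and 4.36 on the D4 arrays (3.40 ± 0.24, adjusted p = 2.64e-05). In each of these genes every D8 array lay above every D4 array.

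Cxcr3, the receptor through which T helper 1 cells follow interferon-induced chemokines, had 9.57, 9.97 and 8.78 on the D8 arrays, against 5.83, 6.29 and 6.28 on the D4 arrays. Its increase was 3.31 ± 0.22 (adjusted p = 1.89e-05). Zbtb32, a zinc finger repressor of cytokine genes in T cells, read 9.67, 9.36 and 9.17 on the D8 arrays, against 6.28, 5.78 and 5.76 on the D4 arrays and was 3.46 ± 0.11 higher (adjusted p = 2.43e-06). Emp1, a tetraspan membrane protein, rose by 3.56 ± 0.12, and Ifitm3, an interferon-induced membrane protein, by 3.31 ± 0.25. Chil5, a chitinase-like protein, was 3.49 ± 0.13 higher, Rnase4, a secreted ribonuclease, 3.11 ± 0.13, and the actin gene Acta2 2.82 ± 0.13. The other probes of Acta2 gave 0.23 and 0.33 and were not called. Plac8, a small cysteine-rich protein, rose by 3.17 ± 0.32, but its D8 arrays were far apart at 8.38, 10.38 and 8.26, against 5.73, 5.96 and 5.83 in D4. D8 and D4 values did not overlap in any of these genes.

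The myeloid marker Lyz1 moved with this group. It rose (1.14, adjusted p = 0.0284) and did not pass without experiment 1 (0.0557) or when undetected probes were also tested (0.295). Lyz2 was 0.97 (adjusted p = 0.0562), and the summed intensity of the 8 myeloid markers was 465.5 to 678.2 in D8 and 226.3 to 468.6 in D4, with the 4 named above at background. Their part in these increases was not tested.

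The largest decreases were in genes for a phospholipase, a Wnt ligand and membrane proteins. Sapcd1 had 6.10, 5.82 and 7.01 on the D8 arrays, against 10.37, 10.56 and 10.33 on the D4 arrays, the largest fall of any gene (-4.11 ± 0.23, adjusted p = 1.3e-05). Pla2g4f, a cytosolic phospholipase A2, read 5.72, 5.72 and 7.37 on the D8 arrays, against 10.46, 10.44 and 10.13 on the D4 arrays (-4.07 ± 0.33, adjusted p = 5.52e-05). D8 of experiment 3 was higher than the other two but still far below D4. Wnt10a, a secreted Wnt ligand, stood at 5.87, 5.88 and 6.17 on the D8 arrays, against 8.86, 9.66 and 8.79 on the D4 arrays, a fall of -3.13 ± 0.19 (adjusted p = 1.65e-05). Nrn1, which encodes the membrane-anchored protein neuritin, read 5.50 to 5.64 in D8, against 8.41 to 8.93 in D4 (-3.07 ± 0.13). Cd86, a ligand of CD28 and CTLA4 best known from antigen-presenting cells, had 6.13, 6.81 and 6.87 on the D8 arrays, against 9.64, 9.57 and 9.29 on the D4 arrays. Its 3 probes were all lower, at -2.89, -2.85 and -2.47. The HMG-box factor Sox4 changed by -2.44 ± 0.16 and Pik3r3, which regulates the catalytic subunits of PI3 kinase, by -2.70 ± 0.17. Itm2a, a membrane protein of activated T cells, changed by -2.32 ± 0.13. Tmie and Whrn, both known from hair cells of the inner ear, changed by -3.03 ± 0.12 and -2.43 ± 0.17. D8 and D4 values did not overlap in any of these genes.

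**Figure D2:**
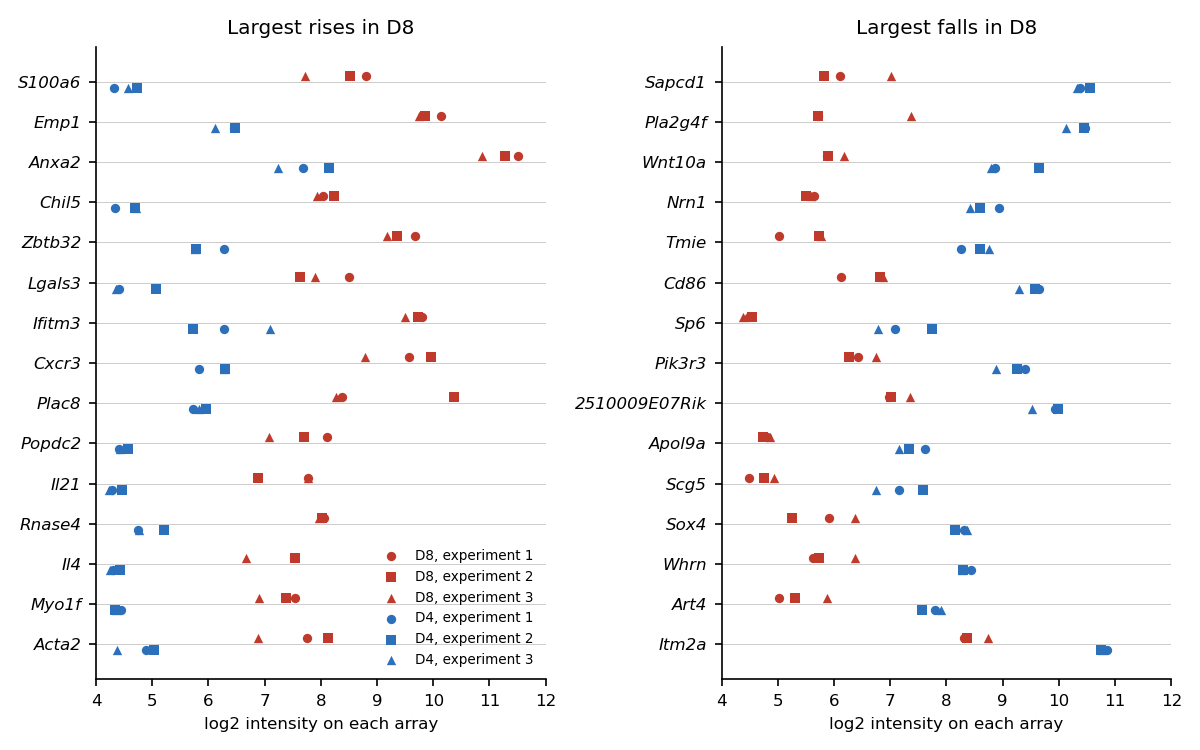
Log2 intensity of the 15 genes with the largest called increase (left) and the 15 with the largest called decrease (right) on each array. Red marks D8, blue marks D4, and the symbol marks the experiment. D8 and D4 are separate in all 30 genes, and Plac8 in experiment 2 and Pla2g4f in experiment 3 stand away from the other D8 arrays.

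Some genes were measured in only 1 of the divisions. In D8 but on no D4 array, 85 genes were detected on all 3 arrays, of which 70 were called. The reverse held for 93 genes, of which 77 were called. For such genes the change is a lower bound, set against the faintest signal above background on the D4 or D8 arrays. Popdc2 was at least 7.55-fold higher in D8 (adjusted p = 1.4e-05), with 8.11, 7.70 and 7.08 on the D8 arrays. Sccpdh was at least 4.5-fold higher, 1500009L16Rik at least 4.45-fold and Ifi202b, an interferon-inducible gene, at least 4.19-fold. In the other direction, Sp6, a zinc finger factor of the Sp family, was at least 5.5-fold lower in D8, Arhgap20 at least 4.46-fold, Sh3bgrl2 at least 4.16-fold, Igsf3 at least 3.23-fold and Ddc, the enzyme aromatic amino acid decarboxylase, at least 2.78-fold. The genes detected in D8 and not in D4 included cytokines.

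Cytokine genes changed in both directions. Of 20 tested, 7 rose in D8 and 4 fell (35% and 20%, beside 15.2% and 15.7% of all genes). The rises were in genes not detected on every D4 array, and of the 11 cytokine genes detected on all 6 arrays 0 rose and 4 fell, with a median of -0.13. Il21, the follicular helper cytokine that acts on B cells, read 7.77, 6.87 and 7.78 on the D8 arrays, against 4.29, 4.46 and 4.23 on the D4 arrays, and no D4 array was above background. It was at least 6.78-fold higher (adjusted p = 1.79e-05). Il4, the T helper 2 cytokine, had 7.53, 7.53 and 6.67 on the D8 arrays, against 4.31, 4.43 and 4.25 on the D4 arrays and was at least 5.77-fold higher (adjusted p = 1.3e-05). Il17f was at least 4.17-fold higher with unequal D8 arrays of 7.71, 5.64 and 6.98, Il10 at least 2.14-fold and Tgfb3 at least 1.96-fold. These 5 of the 7 that rose were below background on every D4 array. Ifng, the T helper 1 cytokine, stood at 6.35, 6.60 and 5.55 on the D8 arrays, against 4.82, 4.60 and 4.96 on the D4 arrays (1.37 ± 0.22, adjusted p = 0.00215). Lif rose by 1.22 ± 0.15.

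The cytokine genes that fell were Il2, Lta, Ltb and Il16. Il2, the T cell growth factor, read 7.16, 6.95 and 7.26 on the D8 arrays, against 8.34, 7.90 and 8.26 on the D4 arrays (-1.05 ± 0.11, adjusted p = 0.000247). Lta, encoding lymphotoxin alpha, changed by -1.32 ± 0.15 and Ltb by -0.57 ± 0.13. Il17a (0.27), Il13 (0.06) and Tnf (-0.02) were not called. Ltb and Il16 did not pass without experiment 2 (adjusted p = 0.0702 and 0.138), nor Il16 with median centring (0.0732). When undetected probes were also tested, Ifng, Ltb and Il16 were not called (adjusted p = 0.0829, 0.0681 and 0.0651).

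Receptors for chemokines and other attractants changed in both directions, with 6 of 21 higher and 9 lower (28.6% and 42.9%, beside 15.2% and 15.7% of all genes). Beside Cxcr3, Cxcr4, the receptor for CXCL12, rose by 2.57 ± 0.21 (adjusted p = 6.34e-05). Cxcr5, which guides follicular helper cells into B cell follicles, had 10.79, 10.83 and 10.43 on the D8 arrays, against 8.79, 8.69 and 8.92 on the D4 arrays (1.88 ± 0.14, adjusted p = 3.41e-05), and its other probes rose by 1.72 and 1.90. Gpr183, a receptor for oxysterols that positions cells at follicle borders, rose by 1.57 ± 0.18, and S1pr4, a sphingosine phosphate receptor, by 0.79 ± 0.12. Ccr7, which holds naive and central memory T cells in the T zone, read 6.36, 7.18 and 7.28 on the D8 arrays, against 8.33, 8.69 and 8.22 on the D4 arrays. It was -1.48 ± 0.18 in D8 relative to D4 (adjusted p = 0.000444), without overlap. Gpr83 changed by -1.81 ± 0.16, Ccr8 by -1.49 ± 0.17 and F2r by -0.99 ± 0.16, the last not called when undetected probes were also tested (adjusted p = 0.0567). Cxcr3, Cxcr4 and Cxcr5 were thus among the genes that rose, and Ccr7 and Ccr8 among those that fell.

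Among cytokine receptors, 3 of 22 rose and 5 fell (13.6% and 22.7%, near the shares over all genes), and 5 rose and 8 fell without experiment 3. Il10ra rose by 1.38 ± 0.12 and Il18r1, the interleukin 18 receptor, by 0.88 ± 0.21. The 3 receptors of TGF-beta were all lower, Tgfbr1 at -1.29 ± 0.14, Tgfbr3 at -1.19 ± 0.12 and Tgfbr2 at -0.60 ± 0.11, although a dimmer probe of Tgfbr2 gave 0.02. Ifngr2, a chain of the interferon gamma receptor, changed by -1.15 ± 0.12 and Il15ra by -0.68 ± 0.12. The receptor for interleukin 7, on which memory cells depend, was not called. Il7r read 7.31, 7.81 and 7.56 on the D8 arrays, against 6.95, 6.91 and 7.83 on the D4 arrays, a difference of 0.33 ± 0.19 (adjusted p = 0.233). Without experiment 3 it was 0.63 and passed (adjusted p = 0.00813), and its other probe gave -0.14. Il2rb (0.05) was not called. Il2ra was not called by its brightest probe (0.01 ± 0.14, adjusted p = 0.981), while its dimmer probe rose by 0.73. Il18r1 did not pass when undetected probes were also tested (adjusted p = 0.175).

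Signalling genes downstream of cytokine receptors changed in both directions, suppressors included. Of 22 STAT, JAK, SOCS and PIM genes, 6 rose and 3 fell (27.3% and 13.6%), with 3 rises left without experiment 2. Socs3, an inhibitor of JAK kinases downstream of interleukin 6 and related cytokines, had 10.48, 10.34 and 10.33 on the D8 arrays, against 7.80, 7.67 and 8.40 on the D4 arrays (2.43 ± 0.16, adjusted p = 1.89e-05). Socs2 was at least 4.2-fold higher in D8. The brightest probe of Jak1 gave 1.34 ± 0.14, but another was called at -0.48, so no direction is given for this gene. Pim2, a survival kinase induced by cytokines, changed by -0.84 ± 0.16 and Socs5, another suppressor, by -1.15 ± 0.14. Pim2 was not called when undetected probes were also tested (adjusted p = 0.0775). No call was made for Stat3 (0.10), Stat4 (0.32), Stat5a (-0.22) or Stat6 (-0.21).

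The cell cycle showed the most uniform difference. All 25 mitosis genes tested, of 36 on the array, and all 16 kinesin and cytokinesis genes, of 19, were higher in D8. These shares were 100% each, beside 15.2% of all genes, and the median changes were 1.59 and 1.71. Cdc25b, the phosphatase that activates CDK1 at entry into mitosis, read 8.04, 7.41 and 7.64 on the D8 arrays, against 5.08, 4.98 and 5.18 on the D4 arrays (2.61 ± 0.13, adjusted p = 1e-05). Birc5, also called survivin and part of the chromosomal passenger complex, had 11.66, 11.46 and 10.999 on the D8 arrays, against 9.58, 9.28 and 8.93 on the D4 arrays, and its 3 probes rose by 2.11 to 2.25. Plk1, the mitotic polo-like kinase, stood at 10.56, 10.31 and 9.73 on the D8 arrays, against 8.43, 8.35 and 8.03 on the D4 arrays (1.93 ± 0.12). D8 and D4 arrays did not overlap in any gene of the mitosis and kinesin lists. Aurka, the kinase of spindle poles, rose by 1.92 ± 0.11, Cdca8, a passenger complex subunit, by 1.92 ± 0.11, and Cdk1 itself by 1.79 ± 0.13. Foxm1, a transcription factor of mitotic genes, rose by 1.43 ± 0.13. Among motor proteins, Kif18b rose by 2.05 ± 0.13, Kif2c by 1.94 ± 0.11, Kif4 by 1.91 ± 0.11 and Kif22 by 1.88 ± 0.12. Lowest in the lists were Plk4 (0.79 ± 0.12) among mitosis genes and Kifc1 (0.62 ± 0.11) among kinesins. All 41 stayed called in each alternative that tested them.

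To show what the promoters of these genes share, windows of 250 bases before to 50 after the annotated start were taken from RefSeq (GRCm38.p6) and searched on both strands, with motifs chosen after the data had been seen. The cell cycle homology region (CHR, TTTGAA or TTCGAA) is bound by the DREAM and MuvB complexes, and the CCAAT box by NF-Y. Windows were at hand for 35 of the 41 genes. The promoters of Cdc25b, Plk1, Aurka and Kif22 are shown because these genes were among those that rose most and hold both motifs. Capitals mark the CHR and CCAAT matches, read on either strand, in the direction of transcription.
Cdc25b (chr2:131186698-131186997, plus strand): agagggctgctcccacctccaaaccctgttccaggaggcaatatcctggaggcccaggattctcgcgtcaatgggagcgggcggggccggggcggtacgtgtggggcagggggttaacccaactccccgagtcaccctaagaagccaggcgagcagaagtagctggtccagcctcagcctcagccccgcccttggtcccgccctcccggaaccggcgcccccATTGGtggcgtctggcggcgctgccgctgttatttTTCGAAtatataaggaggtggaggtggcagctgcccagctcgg
Plk1 (chr7:122159185-122159484, plus strand): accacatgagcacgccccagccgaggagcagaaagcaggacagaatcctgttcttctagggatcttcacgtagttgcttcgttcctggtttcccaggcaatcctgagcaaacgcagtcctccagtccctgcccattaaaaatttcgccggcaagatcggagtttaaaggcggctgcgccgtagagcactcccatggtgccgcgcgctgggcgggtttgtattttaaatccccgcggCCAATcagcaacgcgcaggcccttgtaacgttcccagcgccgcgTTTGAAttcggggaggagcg
Aurka (chr2:172370521-172370820, minus strand): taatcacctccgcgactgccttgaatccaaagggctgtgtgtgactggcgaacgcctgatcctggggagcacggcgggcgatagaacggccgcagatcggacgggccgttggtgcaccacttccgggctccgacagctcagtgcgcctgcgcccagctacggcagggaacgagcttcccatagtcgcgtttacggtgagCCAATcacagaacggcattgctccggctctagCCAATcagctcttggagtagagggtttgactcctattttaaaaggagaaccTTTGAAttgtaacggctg
Kif22 (chr7:127042371-127042670, minus strand): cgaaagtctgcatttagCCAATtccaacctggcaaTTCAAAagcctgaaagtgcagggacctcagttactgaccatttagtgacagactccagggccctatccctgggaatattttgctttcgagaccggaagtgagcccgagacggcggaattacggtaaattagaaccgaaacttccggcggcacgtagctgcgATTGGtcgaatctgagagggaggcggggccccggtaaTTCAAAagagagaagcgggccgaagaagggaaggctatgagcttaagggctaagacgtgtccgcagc

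A CHR match was present in 28 of the 35 genes (80%), against 16.9% of the 7286 tested genes with a window. Some genes have several windows, and per window the shares were 82.1% of 39, against 14.2%. A CCAAT match was in 22 (62.9%), against 43.5%, and both motifs were in 22 (62.9%), against 7.11%. Position was shared too. Of 40 CHR matches in the mitosis and kinesin promoters, 31 (77.5%) lay within 50 bases of the start, with a median offset of 1 base, whereas of 1463 matches in tested genes 23.7% lay there and the median offset was -134 bases. In both sets a site was counted once per window. Genes with overlapping windows, such as Ect2, Prc1 and Bub3, thus count the same site more than once. In the promoters shown, the CHR begins at 7 in Cdc25b, 30 in Plk1, 32 in Aurka and -17 in Kif22, counted in bases from the start, with a CCAAT box at -28, -14, -19 and -54. Another CHR match in Kif22 begins at -215. Over all genes called, the CHR was in 22.1% of those that rose and 15% of those that fell.

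**Figure D3:**
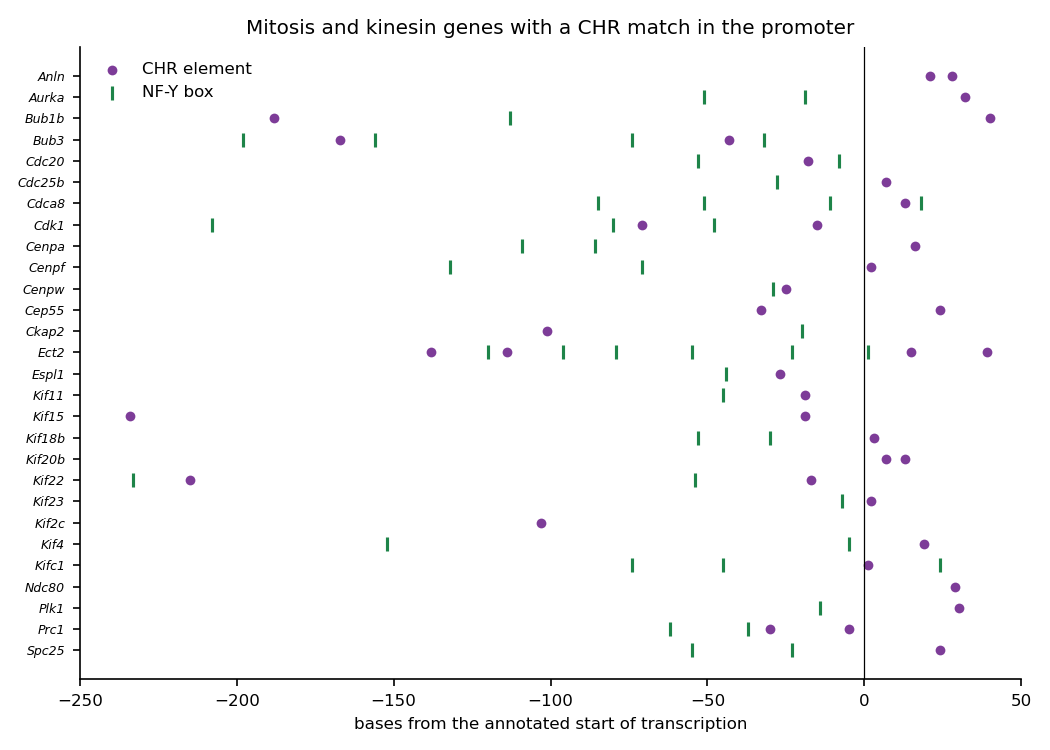
Position of CHR matches (purple points) and CCAAT matches (green ticks) relative to the annotated start of transcription, in bases, in the 28 mitosis and kinesin genes with a CHR match. Of the 40 CHR matches, 31 lie within 50 bases of the start, and CCAAT boxes mostly lie upstream of them.

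Genes of S phase rose less and less evenly. Of 33 DNA replication genes 27 rose and 0 fell at the threshold (81.8% and 0%), with a median change of 0.72. Clspn, which signals stalled forks to CHK1, read 10.26, 10.17 and 9.73 on the D8 arrays, against 8.57, 8.17 and 8.30 on the D4 arrays (1.71 ± 0.13, adjusted p = 4.37e-05). Gins1 rose by 1.28 ± 0.11 and Cdc45 by 1.27 ± 0.12, both parts of the replicative helicase, and the helicase-loading factor Cdc6 by 1.22 ± 0.12. Pcna, the sliding clamp, rose by only 0.36 ± 0.11 (adjusted p = 0.0342). The E2F site (TTTGGCGC or TTTCCCGC, both strands) was in 9 of 27 replication promoters (33.3%), against 3.61% of tested genes. Enzymes of deoxynucleotide supply rose, among them Rrm2 (1.92 ± 0.12), the small subunit of ribonucleotide reductase, Tk1, thymidine kinase (1.54 ± 0.11), and Tyms, thymidylate synthase (1.21 ± 0.12), while purine synthesis genes of the same list such as Gart (-0.09) and Atic (0.22) did not pass. Without experiment 1 or 2, 19 of the 33 replication genes passed in each case.

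Chromatin proteins of dividing cells rose as well. Of 25 replication-dependent histone genes, 17 rose (68%), including all of the H2A and H3 genes tested, and the 8 that did not pass were H4 genes. H2ac8 rose by 1.97 ± 0.15 and H3c3 by 0.88 ± 0.24, against 0.27 for H4c1. Histone genes are near-identical copies, so a probe may read several of them. Top2a, the topoisomerase that untangles chromosomes, rose by 1.79 ± 0.12, and the condensin subunit Ncaph by 1.54 ± 0.12. Homologous recombination genes rose in 12 of 20 (60%), led by Fancd2 (1.61 ± 0.15) and Rad54l (1.32 ± 0.13). The count was 6 of 20, with 1 fall, when undetected probes were also tested. Tubulins rose in 8 of 10 (80%), with Tubb2b at 2.75 ± 0.14 on its brightest probe and 0.28 to 1.86 on the others.

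Brakes and accelerators of G1 both moved. Cdkn2c, the CDK4 and CDK6 inhibitor p18, had 8.72, 8.26 and 8.61 on the D8 arrays, against 6.49, 6.58 and 6.63 on the D4 arrays (1.96 ± 0.13, adjusted p = 2.01e-05), and Cdkn2d, the related p19, rose by 1.37 ± 0.12. Cdkn1a, encoding p21, was at least 1.63-fold higher, and Cdkn1b, encoding p27, was not called (-0.14). Ccne1, cyclin E1, rose by 1.56 ± 0.16 and E2f2 by 1.30 ± 0.11. Ccnd2, cyclin D2, was lower (-0.98 ± 0.29), with D8 at 10.22, 10.58 and 10.998 and D4 at 12.07, 11.74 and 10.94, so that experiment 3 showed no fall and the groups overlapped. Its adjusted p was 0.031 and became 0.0825 without experiment 1, 0.134 without experiment 2 and 0.299 when undetected probes were also tested. A dimmer probe of Ccnd2 was called at -0.87 ± 0.13, and another, at -0.87 ± 0.29, was not (adjusted p = 0.0529).

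Genes of the Bcl2 family, which decide cell survival, fell more often than they rose, on both the protective and the death-promoting side. Of 16 tested, 3 rose and 7 fell (18.8% and 43.8%), with a median of -0.09. Bcl2, which protects resting and memory T cells, read 7.10, 7.14 and 7.16 on the D8 arrays, against 8.23, 8.55 and 8.29 on the D4 arrays (-1.22 ± 0.12, adjusted p = 0.000123). Of its other probes, 3 fell by 0.49 to 1.11 and 1, at -0.24, was not called. Bcl2l1, encoding Bcl-xL, changed by -0.72 ± 0.11 on its brightest probe, and all 3 probes fell. Mcl1 changed by -0.51 ± 0.12 (adjusted p = 0.0108), which did not pass without experiment 1 (0.0552) or experiment 2 (0.0644). These are the main anti-death members.

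Several BH3-only genes, whose products trigger death, fell too. Bbc3, encoding Puma, had 5.67, 5.19 and 5.69 on the D8 arrays, against 7.66, 7.50 and 7.75 on the D4 arrays (-2.12 ± 0.12, adjusted p = 1.31e-05). Bcl2l11, encoding Bim, changed by -1.42 ± 0.15, and Bmf was at least 1.9-fold lower in D8. Against this trend Bik, another BH3-only gene, rose by 1.09 ± 0.16 and the pore-forming Bak1 by 0.79 ± 0.18, though neither passed when undetected probes were also tested (adjusted p = 0.0512 and 0.138). The other gene of the family that rose, Bcl2a1c, changed by 0.42. It did not pass without experiment 1 (adjusted p = 0.0864) or 3 (0.134), or when undetected probes were also tested (0.0989). Of 19 caspase, death receptor and adaptor genes, 4 rose and 0 fell at the threshold (21.1% and 0%, beside 15.2% and 15.7% of all genes). The inhibitor of apoptosis Birc2, counted here with the NF-kappaB regulators, changed by -0.64 ± 0.11. The genes that rose were Ripk3 (0.96 ± 0.13), the kinase of necroptosis, Cycs (0.79 ± 0.12), Fas (0.67 ± 0.11) and Apaf1 (0.41 ± 0.12). Fasl, the ligand of Fas, is not among these 19 genes and changed by -0.89 ± 0.14. Apaf1 was not called without experiment 1 (adjusted p = 0.176) or 3 (0.0659), or when undetected probes were also tested (0.0712).

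Transcription factors of T helper fates changed without a common direction. Of 29 tested, 9 rose and 6 fell (31% and 20.7%). After Zbtb32, the largest increases were Pou2af1, a coactivator of octamer factors (1.17 ± 0.15), Hif1a (0.90 ± 0.12), Ikzf3 (0.82 ± 0.15) and Rora (0.76 ± 0.13). Tbx21, encoding the T helper 1 factor T-bet, read 5.20, 6.11 and 5.19 on the D8 arrays, against 4.92, 5.01 and 4.98 on the D4 arrays (0.53 ± 0.17, adjusted p = 0.0491). Without experiment 2 the change was 0.24 (adjusted p = 0.264), and its call was also lost with an offset of 50 (0.0549), with the authors' values (0.0577) and when undetected probes were tested (0.284). Ikzf3 too was not called in the last case (0.0774). Bcl6, the follicular helper factor, stood at 10.55, 10.52 and 10.01 on the D8 arrays, against 10.23, 9.88 and 9.51 on the D4 arrays (0.48 ± 0.12, adjusted p = 0.0141, and 0.0858 without experiment 2). Without the experiment block neither Tbx21 nor Bcl6 was called (adjusted p = 0.115 and 0.115). Gata3, the T helper 2 factor, was -0.29 ± 0.11 (adjusted p = 0.0802), and passed with an offset of 50 (0.0269) and when undetected probes were also tested (0.0494).

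Lower in D8 were several factors of other states. Id2, an inhibitor of E proteins, had 8.10, 8.66 and 8.54 on the D8 arrays, against 9.74, 9.33 and 9.39 on the D4 arrays (-1.05 ± 0.18, adjusted p = 0.0027), and 2 of its 3 probes were called, though not when undetected probes were also tested (0.0755). Tox changed by -0.99 ± 0.14, Bhlhe40 by -0.97 ± 0.11 and Ikzf2, encoding Helios, by -0.77 ± 0.12. Foxp3, the regulatory T cell factor, had 2 kept probes called in opposite directions, -0.50 and 0.43, and no direction is given. Id3 (0.14), Lef1 (-0.12) and Foxo1 (-0.27, adjusted p = 0.0972) were not called, although Foxo1 passed with an offset of 50 (0.0318). Eomes and Prdm1 were not detected on any array of either division.

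Quiescence factors fell more often than they rose, with Klf2 among the rises. Of 20 tested, 3 rose and 7 fell (15% and 35.0%), median -0.24. Tsc22d3, the glucocorticoid-induced leucine zipper, read 7.44, 7.88 and 8.48 on the D8 arrays, against 9.68, 9.91 and 9.91 on the D4 arrays (-1.90 ± 0.16, adjusted p = 6.17e-05). Foxp1, which keeps naive T cells at rest, changed by -1.26 ± 0.14, Mxd4, an antagonist of MYC, by -1.22 ± 0.13, Txnip, an inhibitor of glucose uptake, by -1.10 ± 0.14, and Btg1 by -0.80 ± 0.13. Klf2, by contrast, which holds T cells at rest and drives expression of the egress receptor S1PR1, had 10.65, 10.56 and 10.51 on the D8 arrays, against 8.99, 8.79 and 9.09 on the D4 arrays (1.61 ± 0.12, adjusted p = 3.14e-05), all D8 arrays above all D4 arrays. Mxd3, an S phase member of the MXD family, rose by 1.58 ± 0.17.

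Several activation markers and costimulatory genes fell in D8. Cd69, which appears early after activation and retains cells in lymphoid tissue, had 10.76, 10.59 and 11.14 on the D8 arrays, against 12.17, 12.21 and 12.57 on the D4 arrays (-1.49 ± 0.11, adjusted p = 3.65e-05). Cd44, an adhesion receptor of antigen-experienced cells, read 9.75, 9.62 and 9.67 on the D8 arrays, against 10.59, 10.89 and 10.63 on the D4 arrays (-1.02 ± 0.12, adjusted p = 0.00045), with 3 of its other 4 probes also called and the fourth at -0.27. Of 23 costimulatory receptors and TNF ligands, 10 fell and 1 rose (43.5% and 4.35%), median -0.30. Tnfsf4, encoding OX40 ligand, had 4.41, 4.36 and 5.20 on the D8 arrays, against 6.30, 6.81 and 6.78 on the D4 arrays (-1.97 ± 0.16). Its D8 level lies near background, as Sp6, detected on no D8 array, read 4.48 and 4.55 in experiments 1 and 2. Cd226, an activating receptor, changed by -1.78 ± 0.11, Tnfrsf18, encoding GITR, by -1.10 ± 0.11, and Tnfrsf9, encoding 4-1BB, by -0.98 ± 0.14. Icos, a follicular helper costimulator, was the member that rose (0.75 ± 0.19, adjusted p = 0.0157), and it did not pass without experiment 2 (0.44, adjusted p = 0.0659) or without the block (0.0676), or when undetected probes were also tested (0.176). A dimmer probe of Icos was called at 1.22 ± 0.11. Cd28 (-0.05) and Cd27 (-0.19) were not called.

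Inhibitory receptors and ligands changed in both directions. Tigit, which competes with Cd226 for shared ligands, had 7.85, 6.98 and 6.61 on the D8 arrays, against 4.72, 5.05 and 4.61 on the D4 arrays (2.35 ± 0.21, adjusted p = 9.81e-05), opposite in direction to Cd226. Havcr2, encoding TIM-3, was at least 1.91-fold higher in D8. Cd200 changed by -1.22 ± 0.20, Cd274, encoding PD-L1, by -0.68 ± 0.12, and Ctla4, counted with the costimulatory genes, by -0.62 ± 0.11. Of the 9 inhibitory genes tested, 2 were called higher and 4 lower (22.2% and 44.4%), or 2 lower without either experiment 1 or experiment 2. The rises were in genes not detected on every D4 array, and of the 6 genes detected on all 6 arrays 0 rose and 4 fell. When undetected probes were also tested 2 rises and 1 fall were called, and Cd200 was not (adjusted p = 0.0819).

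Components of the NF-kappaB pathway fell more often than they rose, its inhibitor Nfkbia included. Of 23 tested, 2 rose and 11 fell (8.70% and 47.8%), median -0.39, or -0.33 with undetected genes at their bound. Cd83, an NF-kappaB target, had 8.11, 8.30 and 8.53 on the D8 arrays, against 9.79, 9.98 and 10.14 on the D4 arrays (-1.66 ± 0.11, adjusted p = 1.79e-05). The kinase Ikbke changed by -0.74 ± 0.11, Nfkbia, encoding IkappaB alpha, by -0.65 ± 0.14, Relb by -0.62 ± 0.12 and Rel by -0.52 ± 0.13. The atypical family member Bcl3 rose, reading 8.86, 8.65 and 8.31 on the D8 arrays, against 7.39, 7.18 and 7.15 on the D4 arrays (1.37 ± 0.12, adjusted p = 7.59e-05). Leaving out experiment 2 left 7 of the 11 falls, and Nfkbia was not called then (adjusted p = 0.0578) or when undetected probes were also tested (0.0853).

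Among phosphatases and other feedback genes of MAP kinases, 7 of 17 fell and 1 rose (41.2% and 5.88%), median -0.30. Dusp1 changed by -1.66 ± 0.11, Dusp6, specific for ERK, changed by -1.34 ± 0.12 and Dusp2 by -1.29 ± 0.11. Egr3 changed by -0.75 ± 0.11, while Myc (-0.23), Fos (-0.36) and Jun (0.31) were not called. The receptor complex and its proximal kinases had 2 genes higher and 2 lower of 27 (7.41% each), below the share over all genes. Cd3e (-0.26), Cd3g (-0.21), Lat (-0.10) and Zap70 (-0.06) were not called. Rasgrp1, an exchange factor that activates RAS, changed by -0.73 ± 0.13. Egr1 and Egr2 were called lower (-0.52 and -0.40), but not with median centring (adjusted p = 0.063 and 0.117) or without experiment 2 (0.0701 and 0.193). Egr2 was also not called without experiment 1 (0.0503), without the block (0.164) or when undetected probes were tested (0.0989).

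In the PI3 kinase pathway 4 of 30 genes rose and 7 fell (13.3% and 23.3%), with 4 falls without experiment 2. Sgk1, a kinase of the AKT family induced by salt and cytokines, had 11.59, 11.26 and 11.51 on the D8 arrays, against 8.93, 8.75 and 9.26 on the D4 arrays (2.48 ± 0.12, adjusted p = 9.92e-06). Pik3ip1, an inhibitor of PI3 kinase, had 7.13, 7.47 and 8.28 on the D8 arrays, against 9.53, 9.33 and 10.04 on the D4 arrays (-2.01 ± 0.14), and Sesn1, a stress-induced inhibitor of mTORC1, changed by -1.74 ± 0.25. Pik3ca (0.06), Pik3cd (0.01), Akt2 (0.01) and Mtor (0.02) were not called. The kinase Pdpk1 rose by 0.45 ± 0.11 on its brightest probe, while its other probe (0.27) was not called. Pdpk1 did not pass without experiment 1 (adjusted p = 0.0799). Rictor, a part of mTORC2, changed by -0.44 ± 0.11 on its brightest probe, but its other probes, at -0.08 to 0.38, were not called. Rictor did not pass without experiment 1 (adjusted p = 0.139) or 2 (0.052). Sesn1 did not pass when undetected probes were also tested (adjusted p = 0.0664).

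Type I interferon genes mostly rose, and interferon gamma genes fell more often than they rose. In the type I list, 18 of 32 genes were higher in D8 and 1 lower (56.2% and 3.12%), median 0.59, while of 13 interferon gamma genes 1 rose and 5 fell (7.69% and 38.5%), median -0.11. Ifitm3 led, with 9.80, 9.73 and 9.49 on the D8 arrays, against 6.27, 5.73 and 7.10 on the D4 arrays, followed by Ifitm1 (2.44 ± 0.15), whose other probe gave 0.97. The 2 genes are close relatives, and Ifitm2, from the same cluster, was not called (0.18). Oas2, an activator of RNase L, had 7.88, 8.31 and 8.97 on the D8 arrays, against 5.76, 5.83 and 6.87 on the D4 arrays (2.24 ± 0.12, adjusted p = 1.3e-05). Oas3 rose by 1.61 ± 0.11, Rsad2, encoding viperin, by 1.54 ± 0.17, and Eif2ak2, encoding PKR, by 1.32 ± 0.17. The response was uneven, since Ifit2 (-0.23), Ifit3 (0.09) and Zbp1 (0.01) were not called. Among interferon gamma genes, Gbp2 changed by -0.92 ± 0.15 and Irf1 by -0.62 ± 0.12, and Gbp3 rose by 0.70 ± 0.12, and Gbp2 was not called when undetected probes were also tested (adjusted p = 0.059). The difference between the types was not tested.

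Antigen presentation genes fell more than any other list by its median (-0.59), with 13 of 20 lower (65.0%) and 2 higher. H2-K1, a classical class I heavy chain, read 10.04, 10.28 and 10.83 on the D8 arrays, against 11.30, 11.88 and 11.78 on the D4 arrays (-1.27 ± 0.14, adjusted p = 0.000266). The class II chaperones fell with it, H2-Oa with 7.67, 8.08 and 8.11 on the D8 arrays, against 9.999, 10.36 and 9.53 on the D4 arrays (-2.01 ± 0.18) and H2-DMa at -1.26 ± 0.12, lower on both probes. The class I-like genes H2-Q6 and H2-Q7 changed by -1.11 ± 0.13 and -0.70 ± 0.13, and near-identical H2-Q copies may share probes. In contrast, the class II chains H2-Ab1 (1.04 ± 0.21) and H2-Eb1 (0.59 ± 0.16) rose, and their partner Cd74 was 0.34 (adjusted p = 0.117). H2-Ab1 read 7.10, 6.47 and 6.19 on the D8 arrays, against 5.37, 5.46 and 5.80 on the D4 arrays.

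Of the 3 B cell markers tested, Cd22 rose beside the class II chains and the other 2 were not called. Cd22 was 1.16 ± 0.26 higher, at 6.29, 6.97 and 5.61 in D8 and 5.16, 4.93 and 5.31 in D4, and the summed intensity of the 7 B cell markers was 211.9 to 277.8 in D8 and 184.8 to 204.3 in D4, with Pax5, Blk and Cr2 at background. The part of B cells in the rise of H2-Ab1 and H2-Eb1 was not tested. H2-Eb1 did not pass without experiment 1 (adjusted p = 0.106) or without the block (0.0784), and neither H2-Ab1, H2-Eb1 nor Cd22 passed when undetected probes were tested (0.132, 0.164 and 0.182). The single detected NK cell marker, Klrd1, which effector T cells also express, rose by 1.23 ± 0.12, and the summed NK marker intensity was 193.4 to 267.4 in D8 and 138.1 to 156.8 in D4.

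Genes of the S100, annexin and galectin families and of the actin cytoskeleton rose more often than they fell. Of 18 S100 proteins, annexins and galectins, 9 rose and 3 fell (50% and 16.7%). The median was 0.42, or 0.37 with undetected genes at their bound. Of the 3 falls, 0 passed without experiment 1 and 1 without experiment 2. S100a11 had 12.90, 12.61 and 12.29 on the D8 arrays, against 10.58, 10.81 and 10.11 on the D4 arrays (2.10 ± 0.13) and Lgals1, galectin 1, 11.99, 11.53 and 11.48 on the D8 arrays, against 9.86, 9.78 and 9.45 on the D4 arrays (1.97 ± 0.12). S100a10, the binding partner of annexin A2, rose by 0.94 ± 0.12. Of 31 actin cytoskeleton genes, 12 rose and 2 fell (38.7% and 6.45%), with 7 rises without experiment 2. Myo1f, a class I myosin of blood cells, was at least 5.88-fold higher, and Vim, the intermediate filament protein vimentin, stood at 10.84, 10.87 and 10.68 on the D8 arrays, against 8.96, 9.36 and 8.99 on the D4 arrays (1.69 ± 0.12). Flna, the actin crosslinker filamin A, rose by 1.37 ± 0.13. Capg, which caps actin filaments, changed by -0.93 ± 0.16 and was not called when undetected probes were also tested (adjusted p = 0.0671). Integrin genes showed no common direction, with 6 of 26 adhesion genes higher and 8 lower (23.1% and 30.8%), or 4 lower without experiment 1 or 2. Icam2 rose by 0.97 ± 0.13 and Itgb7, a chain of the gut-homing integrin, by 0.66 ± 0.11, while the tetraspanin Cd81 changed by -0.70 ± 0.12.

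Cytotoxic genes were not uniformly higher. Prf1, encoding perforin, read 8.04, 7.91 and 8.93 on the D8 arrays, against 9.66, 10.08 and 9.68 on the D4 arrays (-1.51 ± 0.22, adjusted p = 0.00131), lower in every experiment, but not called when undetected probes were tested (0.068). The lysosomal membrane gene Lamp2 rose by 0.97 ± 0.11 and Rab27a, which docks granules, by 0.76 ± 0.13. Nkg7 was not called (-0.25). Ion channels included a strong increase of Kcnk5, a potassium channel, with 8.53, 8.08 and 7.88 on the D8 arrays, against 5.64, 5.14 and 5.63 on the D4 arrays (2.69 ± 0.15, adjusted p = 1.31e-05). Its second probe rose by 0.87. P2rx7, the ATP-gated channel, rose by 1.07 ± 0.12, whereas Atp1b1, a subunit of the sodium pump, changed by -1.10 ± 0.11.

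In metabolism, sterol synthesis was the list with the largest share of increases, 12 of 20 higher and 2 lower (60.0% and 10%), median 0.43. Mvk, mevalonate kinase, read 6.23, 6.28 and 5.89 on the D8 arrays, against 4.82, 4.84 and 4.65 on the D4 arrays (1.36 ± 0.11, adjusted p = 5.76e-05). Fdps, farnesyl diphosphate synthase, rose by 1.03 ± 0.14, Cyp51 by 0.86 ± 0.11, and Srebf2, the master factor of the pathway, by 0.86 ± 0.12. A CCAAT box was in the promoters of 15 of 16 sterol genes at hand (93.8%, against 43.5% of tested genes), or in 16 of their 24 windows (66.7%, against 38%), and the sterol regulatory pattern TCACNCNAC (both strands) in 1 of 16 (6.25%, against 3.14%). Elovl6, a fatty acid elongase, rose by 1.35 ± 0.12.

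Glycolysis genes changed in both directions. Of 17, 7 rose and 4 fell (41.2% and 23.5%), median 0.34. Tpi1 had 11.73, 11.48 and 11.59 on the D8 arrays, against 10.58, 10.42 and 10.44 on the D4 arrays (1.12 ± 0.11), Pgk1 rose by 1.07 ± 0.12 and Gapdh by 0.76 ± 0.12. Those that fell were the phosphofructokinase Pfkm (-0.84 ± 0.11), the enolases Eno3 (-0.82 ± 0.15) and Eno2 (-0.73 ± 0.16), and Pfkfb2 (-0.59 ± 0.13). When undetected probes were tested, Eno3, Eno2 and Pfkfb2 did not pass (adjusted p = 0.068, 0.102 and 0.0547), and Eno2 also not without experiment 2 (0.0538).

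Large housekeeping complexes shifted by little. Of 36 proteasome genes 9 rose (25%) and 0 fell, median 0.22, and the count was 18 with median centring, 3 without experiment 1 and 4 without experiment 2. Of 63 respiratory chain genes 11 rose and 2 fell (17.5% and 3.17%), median 0.19, with 21 rises under median centring, 6 without experiment 1 and 4 without experiment 2. Cox17, a copper chaperone, rose most (0.97 ± 0.11). Ribosomal protein genes had 2 of 51 higher and 8 lower (3.92% and 15.7%, the latter equal to the share over all genes), median -0.16. The number lower was 1 with median centring, 1 without experiment 1 and 0 without experiment 2. Of 47 ribosome biogenesis genes 0 rose and 4 fell (0% and 8.51%), led by Gnl3, encoding nucleostemin (-0.63 ± 0.12).

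Chromatin modifiers included rises of the replication-linked maintenance genes Uhrf1 (0.98 ± 0.12) and Dnmt1 (0.86 ± 0.11), and falls of Tet1 (-0.91 ± 0.11), which oxidises methylcytosine, Hdac7 (-0.80 ± 0.13) and Kdm5b (-0.72 ± 0.14). Of 32 such genes 4 rose and 9 fell (12.5% and 28.1%), and Kdm5b was not called when undetected probes were also tested (adjusted p = 0.0568). In developmental pathways, 10 of 27 Wnt, Notch, Hedgehog and TGF-beta genes fell and 4 rose (37% and 14.8%). Without experiment 2, 5 fell and 2 rose. Smad1 changed by -0.96 ± 0.11 on its brightest probe, with dimmer probes from -0.89 to 0.21, and Tgif1, a repressor of TGF-beta targets, by -1.07 ± 0.15. Axin2, a target and inhibitor of Wnt signalling, rose by 1.05 ± 0.12, while Wnt10a was among the strongest falls of the whole array.

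**Figure D4:**
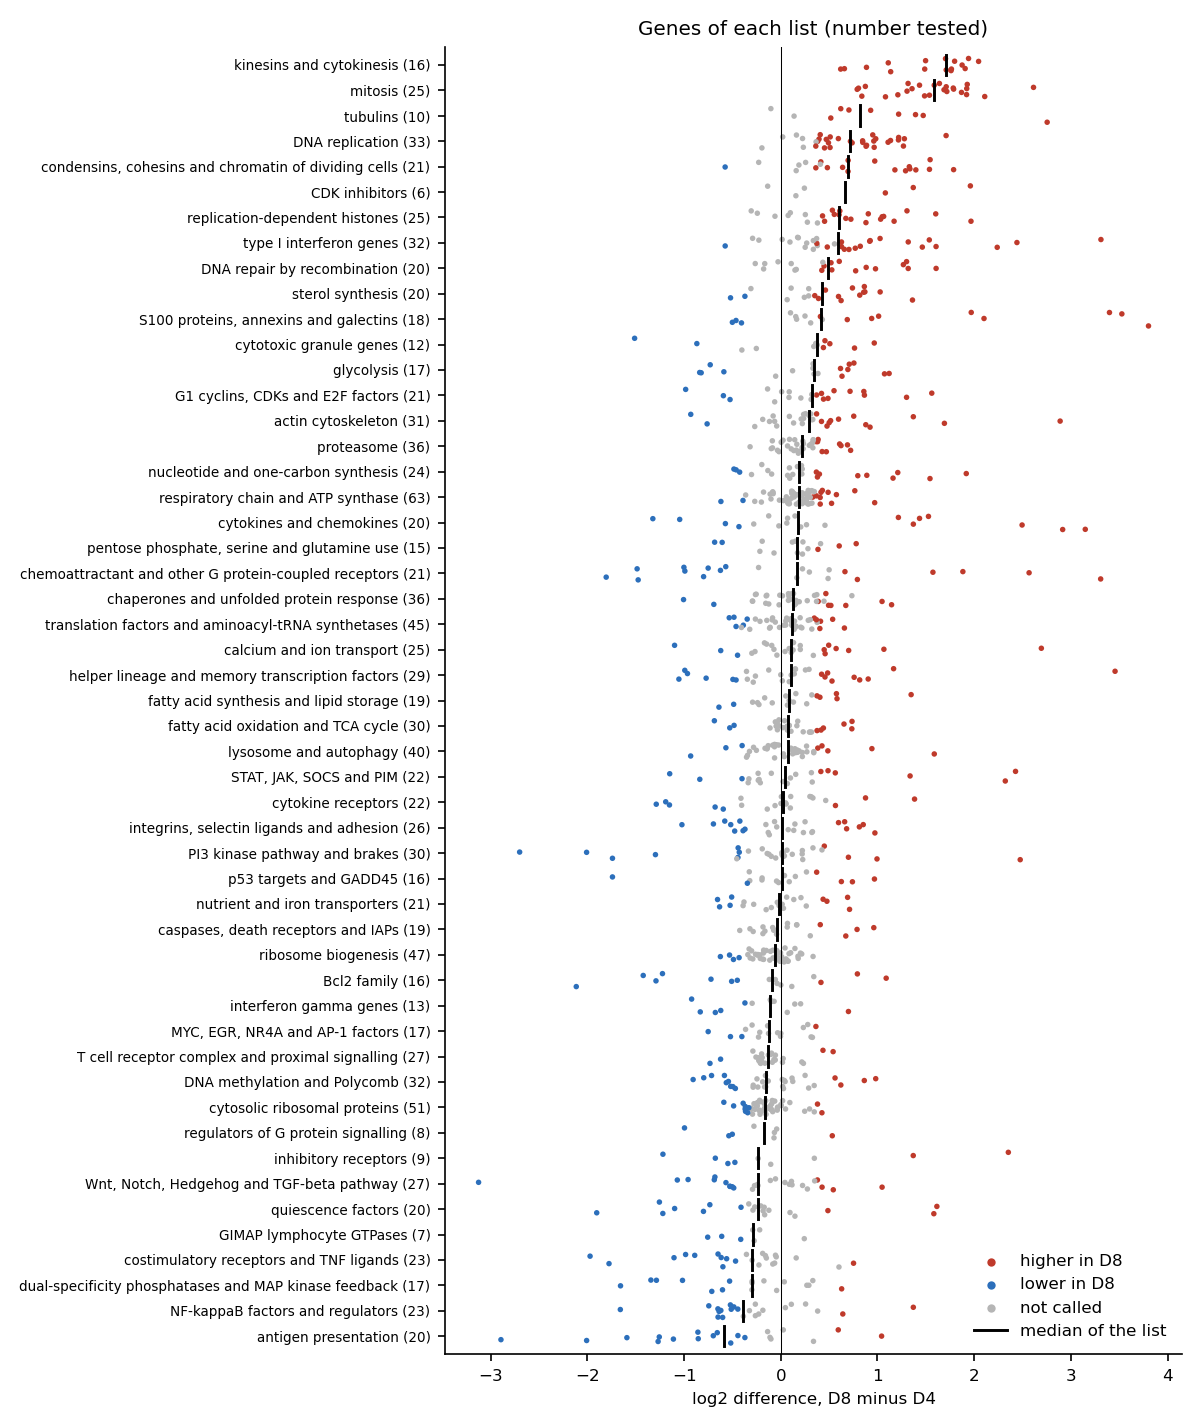
Log2 difference (D8 minus D4) of every tested gene in each list, with the number tested in brackets. Red points were called higher in D8, blue points lower, grey points were not called, and black bars mark list medians, from 1.71 for kinesins and cytokinesis to -0.59 for antigen presentation.

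The levels in D3 (2 divisions) and D6 (5 divisions), normalized together with D8 and D4, place the leading genes along the series. In all 15 genes with the largest rise and all 15 with the largest fall, the D6 mean lay between those of D4 and D8. The D3 mean minus the D4 mean was between -0.77 and 0.09 for the genes that rose and between -0.12 and 0.59 for those that fell. The mean of S100a6 was 4.52 after 2 divisions (D3), 4.54 after 3 (D4), 5.93 after 5 (D6) and 8.34 after 7 (D8), so that most of its increase lay between D6 and D8. These levels share the D4 and D8 arrays with the comparison and are given as description.

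**Figure D5:**
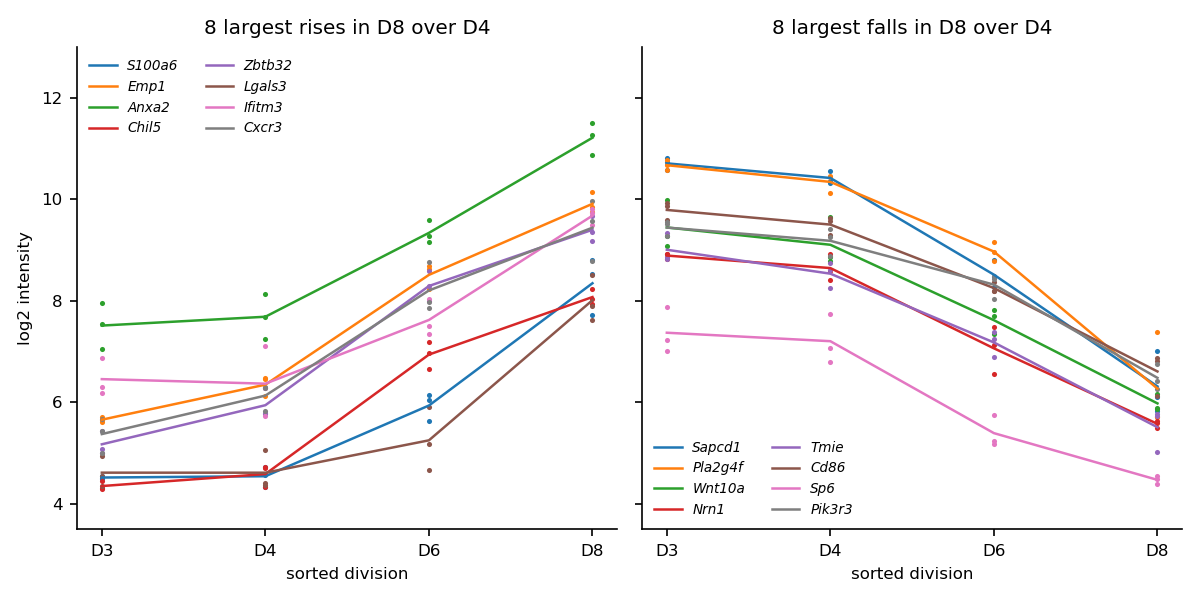
Log2 intensity of the 8 genes with the largest increase (left) and the 8 with the largest decrease (right) in D8 relative to D4, on the 3 arrays of each division (points), with lines through the means. D6 lies between D4 and D8, and S100a6 and Lgals3 rise mainly from D6 to D8.

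Experiments differed in the size of some changes. The median absolute difference of called genes was 0.65 in experiment 1, 0.64 in experiment 2 and 0.54 in experiment 3. The widest disagreement was in Plac8, Pla2g4f, Il17f, Cd163l1, Clec2d, Ccnd2, Lyz1 and Cd22. Clec2d, a ligand of NK cell receptors, read 10.04, 10.57 and 10.38 on the D8 arrays, against 11.90, 11.83 and 10.35 on the D4 arrays, so experiment 3 showed no fall, and it did not pass without experiment 1 (adjusted p = 0.0602) or 2 (0.127), without the block (0.057) or when undetected probes were also tested (0.279). Cd163l1, a scavenger receptor of gamma delta T cells, was at least 3.82-fold higher in D8, at 7.67, 5.71 and 6.56, and was not called when undetected probes were also tested (adjusted p = 0.0509).

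Probes of 1 gene did not always move alike. Of 1048 called genes with several kept probes, 664 had another probe called the same way, and 111 had a probe of the other sign. In 16 genes probes were called in both directions. Among the 2502 kept probes without a single gene symbol were changes as large as those of named genes. The probe ILMN_1215779 was lower by 4.16 ± 0.26 on the log2 scale, at 4.48, 4.36 and 5.45 in D8, against 8.99, 9.16 and 8.62 in D4, a fall as large as that of Sapcd1. The probe ILMN_2856926 was higher by 3.34 ± 0.12, at 8.54, 8.81 and 8.37 in D8, against 4.99, 5.53 and 5.19 in D4.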

How the data were processed

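Naive CD4 T cells were transferred, activated and sorted as the labels' protocols describe, and 3 D8 and 3 D4 samples were used, whose numbers are experiments per the labels. The members of the comparison and the gene lists were chosen with earlier results of these data known. The authors deposited probe intensity values on a linear scale, without normalization, read with BeadStudio 2.0 per the submitters' processing notes. Beside each stands the authors' detection p-value, per the file headers. A second deposited intensity value per probe was normalized by the authors, by a method not given in the sources used here.

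Intensities of all 12 arrays were normalized with neqc of limma 3.58.1 (R 4.3.3): background from 936 negative controls implied by the detection p-value, offset 16, quantile scaling, log2. Probes detected at p under 0.05 on 3 or more of the 6 arrays were fitted with lmFit and eBayes, with the experiment as a block (2 residual degrees of freedom), and adjusted by Benjamini-Hochberg. The number of arrays limits the precision. The samples are separate experiments, and p-values measure the spread between them. After division means were removed, arrays of the same experiment correlated at 0.317, 0.263 and 0.332, and the 6 other pairs at -0.253 to -0.014. The fit was tested on simulated data, in which the share of false calls exceeded the threshold in part of the draws. With so few residual degrees of freedom, the adjusted p-values rest on the prior of the variances that limma estimates across probes, and hold as far as that prior does.

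Symbols came from the platform annotation (1 symbol for 34885 probes, several for 18, none for 10378), and 34807 were looked up by gene identifier with 0 differing. Named are the 15 largest rises and falls that went the same way in all experiments, up to 8 genes each way detected in 1 division, up to 5 called members each way per list, a fixed set of T cell genes, the 8 genes that varied most between experiments, and the largest changes without a symbol. Other list members were named after their values were seen. Cell type markers were summed as normalized intensity on the linear scale. These sums include the offset of 16 for each marker, also for markers at background. Alternatives were no block, all 12 arrays, median centring, an offset of 50, the authors' values, other detection filters, 1 probe per gene and leaving out each experiment.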

Additional observations from a re-analysis of the deposited data

How the results depend on the processing

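The experiment was a block in the reported fit, because the labels pair the arrays by number. Without the replicate block, 3626 probes were called in place of 4774, of which 3625 were shared. Counts were 5677 with all 12 arrays in the fit, 5431 with an offset of 50, 4538 with the authors' values, 4453 of 13523 probes detected on all 6 arrays, and 3189 of 45281 with no detection filter. Median centring gave 4855, of which 53.5% were higher in D8, against 47.8% in the reported fit. Which direction held more calls thus depended on the normalization. With only the brightest probe of each gene, 2937 of 8884 were called, fewer because fewer probes were tested. Leaving out 1 experiment gave 3074 to 4773 called probes, with 3173 without experiment 1 and 3074 without experiment 2; these fits have fewer samples. No named gene called in the reported fit or in an alternative changed direction in that alternative, and uncalled genes were not checked for this. Of 392 named genes, 352 kept their side of the threshold without the block, 374 with median centring, 380 with the authors' values, 294 with no detection filter, and 320, 312 and 369 without experiments 1, 2 and 3. Of those that lost their call with no filter, the cause was not tested. Low signal over background limits the genes detected in 1 division, whose changes are bounds.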
